A study of Mus musculus with 24 samples.

Results

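De novo lipogenesis, the making of fatty acids from carbohydrate, was followed in mouse liver through 10 genes: Acly, Acaca, Acacb, Fasn, Elovl6, Scd1, Me1, Srebf1, Thrsp and Pnpla3. They were chosen by name, with earlier results of these data known. Each was read from the probe of that gene name with the highest mean Cy5 signal over 24 arrays. All 10 passed the filter on dim probes, among 18649 genes tested of 37074 gene names on the array. The livers came from C57BL/6JRcc mice, all labelled female, which received their diets for 3 weeks after weaning at 3 weeks of age and were killed at postnatal day 42, food-deprived and in the light phase. The GLU+GAL diet (12 mice) gave its monosaccharide energy as glucose and galactose in equal amounts, and the GLU diet (12 mice) as glucose alone. In both diets fat supplied 16% of the energy, protein 20%, starch 32% and monosaccharides 32%. Right liver lobe RNA, labelled with Cy5 for each mouse, was hybridised against a Cy3-labelled pool of all mice, so every value below is a log2 ratio of one mouse over the pool unless another scale is named.

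The genes cover the route from citrate to a stored fatty acid. Acly splits citrate into acetyl-CoA, Acaca and Acacb carboxylate acetyl-CoA to malonyl-CoA, Fasn builds palmitate from it, Elovl6 lengthens palmitate, Scd1 puts in a double bond, and Me1 supplies NADPH. Srebf1 encodes the transcription factor that insulin signalling activates to drive these enzymes, Thrsp encodes a small nuclear and cytosolic protein tied to lipogenic rate, and Pnpla3 encodes a lipid droplet protein that is itself a target of that factor. In liver the programme is known to fall in fasting and to rise on refeeding with carbohydrate.

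Between 46.6% and 51.3% of the Cy5 spots on an array were well above background, the scanner software's test against local background. In the Cy3 channel GLU+GAL 4 had the lowest share of the 24 arrays, 36.5%. GLU+GAL 12 went against its female label, since its Y-linked probes (Ddx3y, Eif2s3y) exceeded background while Xist did not. Diet differences, counts of calls with Fasn and the median r of pairs are given with and without it. The ranges, the percentiles and the SDs by diet include it. The arrays lay on 3 slides of 8, with 4 mice of each diet per slide. All 8 hepatocyte markers passed the filter, and so did 9 of the 10 adipocyte markers, Adipoq being the exception. Fewer cells of a type and less RNA per cell cannot be told apart in these samples.

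The promoters of the genes are shown because the members are described below as moving together, and because the motifs of sterol regulatory element binding proteins and of NF-Y can be looked up in them. RefSeq (GRCm38.p6) gave 12 promoters for 9 of the 10 genes, with none for Scd1 in the table used. The 250 bases before each gene start were searched on both strands for TCACCC, a core of the sterol regulatory element, for CCAAT, the NF-Y box, for the E-box CACGTG and for GGGCGG, a box of Sp1. TCACCC was in 13.8% of all 32851 promoters of this length, CCAAT in 33.8%, CACGTG in 6.02% and GGGCGG in 32.7%. The 4 promoters of the 10 genes that hold TCACCC are printed 5′ to 3′ on the strand of the gene, with both motifs in capitals, the NF-Y box also in its reverse orientation. The last base is the one just before the gene start.
Fasn (chr11:120824548-120824797, minus strand): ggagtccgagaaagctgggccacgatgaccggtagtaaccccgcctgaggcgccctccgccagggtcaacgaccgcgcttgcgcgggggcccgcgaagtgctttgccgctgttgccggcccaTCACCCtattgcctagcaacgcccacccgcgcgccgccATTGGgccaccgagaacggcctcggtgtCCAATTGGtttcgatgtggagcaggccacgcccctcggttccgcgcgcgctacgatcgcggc
Srebf1 (chr11:60210472-60210721, minus strand): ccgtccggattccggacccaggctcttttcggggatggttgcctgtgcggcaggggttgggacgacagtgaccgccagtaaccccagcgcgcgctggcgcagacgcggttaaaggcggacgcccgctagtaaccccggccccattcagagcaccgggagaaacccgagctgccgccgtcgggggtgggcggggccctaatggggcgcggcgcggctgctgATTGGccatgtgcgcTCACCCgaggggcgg
Pnpla3 (chr15:84167566-84167815, plus strand): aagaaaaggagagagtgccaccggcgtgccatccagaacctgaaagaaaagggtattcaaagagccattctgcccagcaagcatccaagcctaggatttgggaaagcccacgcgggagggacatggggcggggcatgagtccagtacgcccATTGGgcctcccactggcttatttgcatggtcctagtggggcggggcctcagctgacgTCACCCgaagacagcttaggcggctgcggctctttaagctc
Me1 (chr9:86695915-86696164, minus strand): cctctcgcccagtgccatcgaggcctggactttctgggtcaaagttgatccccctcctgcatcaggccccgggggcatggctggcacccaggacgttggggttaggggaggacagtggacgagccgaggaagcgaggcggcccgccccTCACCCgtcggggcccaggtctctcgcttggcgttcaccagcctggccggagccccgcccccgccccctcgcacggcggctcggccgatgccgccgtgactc
In Fasn, the sterol element core started at -128 and NF-Y boxes at -90, -62 and -59, the last pair overlapping each other. In Srebf1 the NF-Y box at -30 was followed by the sterol core at -15, and in Pnpla3 the pair stood at -99 and -41. The Me1 promoter shown held the sterol core at -102 and no NF-Y box. Thrsp held NF-Y boxes at -79 and -52 with no sterol core, and Acacb held one at -87. Of the promoters not shown, a second one of Me1 held an NF-Y box at -208 and one of Srebf1 held it at -166. The windows of Acly, Elovl6 and Acaca held neither motif, and none of the 12 promoters held the E-box. Acaca had a single window, and whether it precedes the main start of that gene was not tested. The 10-letter sterol element of the LDL receptor promoter, which contains the core, was in 0.0731% of all promoters and in none of the 12. The Sp1 box was in promoters of Acly, Me1, Pnpla3 and Srebf1. No match says only that these letters are not in the window, and a match is a run of letters and not a measured site.

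The 10 genes varied widely between mice of one diet. Fasn, whose probe lies at chr11:120668460-120668519 of mm9, had log2 ratios from -1.21 to 1.20 with a median of -0.36 in GLU+GAL livers, and from -1.08 to 0.99 with a median of -0.09 in GLU livers. Its highest liver, GLU+GAL 12, carried 5.34 times the level of its lowest, measured as a ratio to the pool. The lowest and the highest GLU+GAL liver both lay outside the GLU range, and the 2 diets overlapped over nearly all of it. Scd1 spanned -1.14 to 1.19 (median 0.02) in GLU+GAL livers and -1.24 to 1.69 (median 0.62) in GLU livers, a 7.65-fold range, the widest of the 10. Thrsp spanned -0.93 to 1.53 (median -0.14) in GLU+GAL livers and -1.02 to 1.63 (median -0.10) in GLU livers, a 6.26-fold range. In Thrsp the highest liver of each diet was far above that diet's median.

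The enzymes at the head of the pathway had narrower ranges than these 3 genes. Acly had log2 ratios from -1.07 to 0.89 (median -0.23) in GLU+GAL livers and from -1.01 to 1.00 (median -0.0062) in GLU livers. Acaca, the cytosolic carboxylase, had the narrowest range of the 10, from -0.45 to 0.66 (median 0.0045) in GLU+GAL livers and from -0.34 to 0.51 (median 0.22) in GLU livers, which is 2.16-fold from lowest to highest. Acacb, the carboxylase at the mitochondrial membrane, ran from -0.98 to 0.55 (median -0.52) in GLU+GAL livers and from -1.02 to 0.43 (median -0.28) in GLU livers. The diets overlapped in all 3 genes, and GLU+GAL livers lay lower at the median in each.

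Among the genes that act on palmitate or supply NADPH, Elovl6 ran from -0.94 to 0.91 (median -0.35) in GLU+GAL livers and from -1.20 to 1.41 (median -0.11) in GLU livers. Me1 ran from -1.27 to 0.55 (median -0.16) in GLU+GAL livers and from -1.27 to 0.62 (median -0.28) in GLU livers, so the diets shared almost the same range. Srebf1 ran from -0.38 to 0.60 (median 0.15) in GLU+GAL livers and from -0.68 to 0.89 (median 0.21) in GLU livers. By range, Srebf1 (2.98-fold) lay close to Acacb (2.97-fold) and above Acaca. Pnpla3 ran from -0.45 to 0.81 (median 0.11) in GLU+GAL livers and from -0.60 to 1.30 (median 0.18) in GLU livers. Pnpla3 was the dimmest of the probes used against its own background, with Cy5 signals of 70.3 to 551 over a median local background of 36, and it was well above background on all 12 GLU+GAL arrays and on 11 of 12 GLU arrays. The other 9 were well above background on all arrays, and none was saturated.

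**Figure D1:**
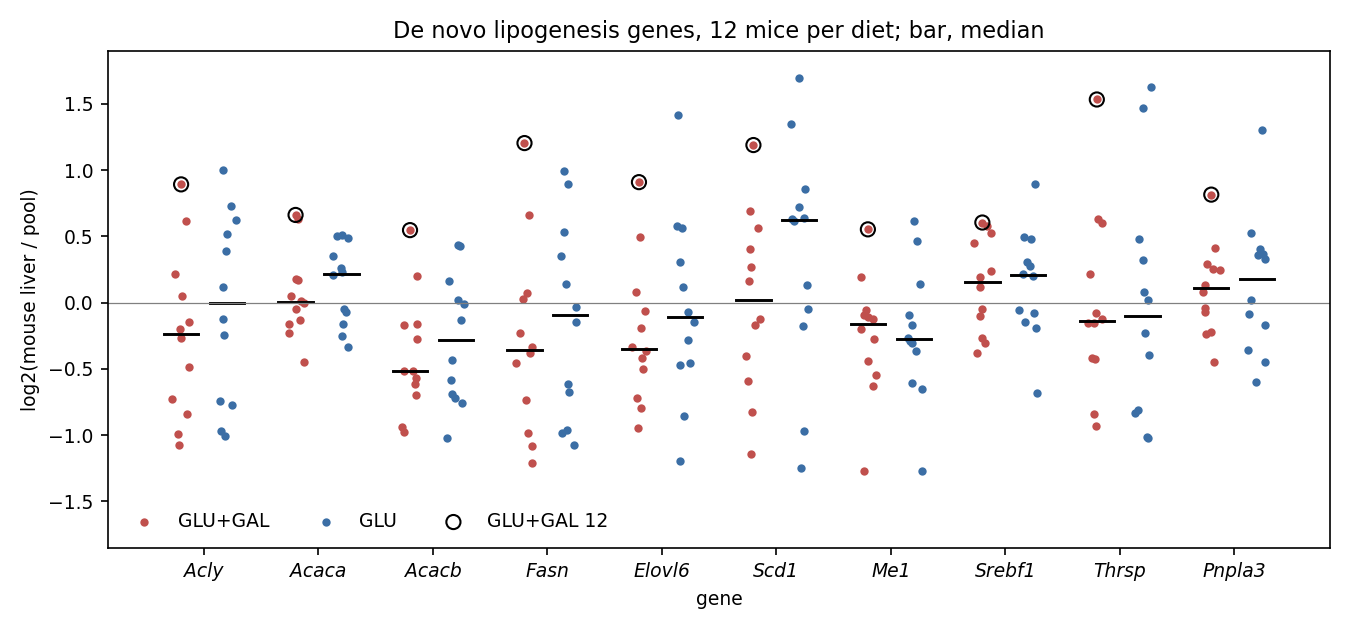
log2 ratio of each mouse liver to the pool (y axis) for the 10 genes (x axis), with the 12 GLU+GAL livers left of the 12 GLU livers; points are mice, bars are medians and rings mark GLU+GAL 12. The diets overlap in all 10 genes, and the ringed liver is the highest GLU+GAL liver in each.

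Set against other genes, the spread of these 10 was high. The genes were chosen with earlier results of these data known, so their place among all genes is a description. The SD of the log2 ratio within diets ran from 0.31 for Acaca to 0.80 for Thrsp, with Scd1 at 0.77, Fasn at 0.72, Acly at 0.67 and Elovl6 at 0.63. The median SD was 0.55 for the 10 genes and 0.17 for all 18649 genes, and the 10 lay between the 93.5th and the 99.7th percentile of all genes. Thrsp had rank 60, Scd1 rank 63 and Fasn rank 75 among the 18649. Without GLU+GAL 12 the SD ran from 0.29 for Acaca to 0.74 for Scd1, with Thrsp at 0.73 and Fasn at 0.66. The same probes were far steadier in the pool channel, a comparison chosen after seeing the data. For this, each channel was quantile normalised between arrays, which removes array-wide differences, and the SD was taken within diets. Over the 24 arrays the Cy5 channel had a median SD of 0.60 across the 10 genes and the Cy3 pool one of 0.078. Over all genes the medians were 0.16 for Cy5 and 0.093 for Cy3. The SD of Cy5 was 12.2 times that of Cy3 for Thrsp, 9.85 times for Elovl6 and 7.00 times for Fasn, but 2.68 times for the dim Pnpla3. The median of this ratio was 7.53 for the 10 genes and 1.83 for all genes.

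**Figure D2:**
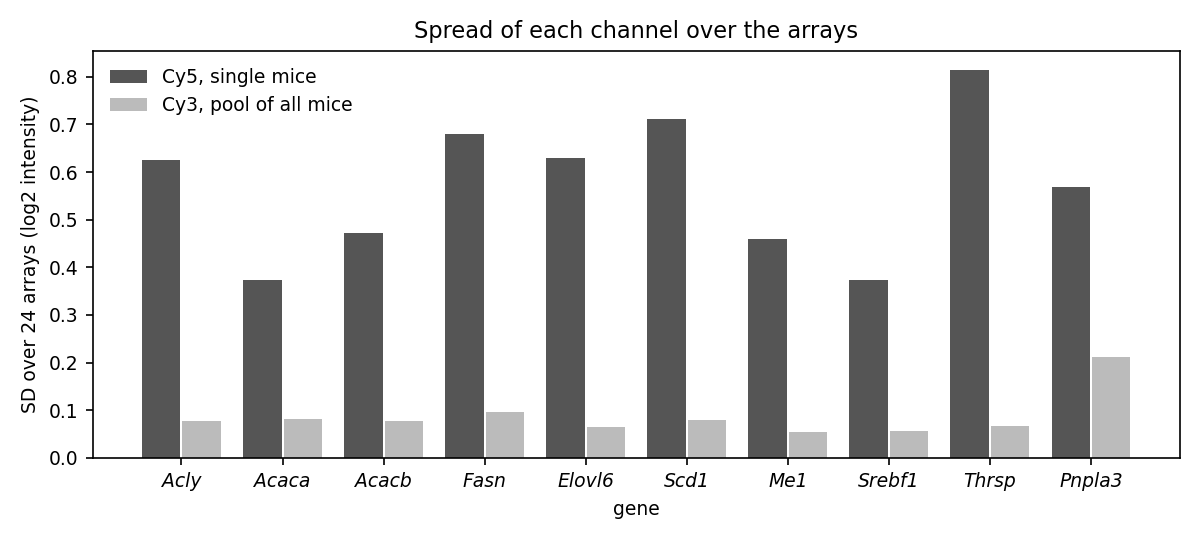
SD within diets of the quantile-normalised log2 intensity over 24 arrays (y axis) for the 10 genes (x axis). Dark bars are the Cy5 channel, 1 mouse per array, and light bars are the Cy3 channel, the same pool on each array. In each gene the Cy5 bar is at least 2.68 times the Cy3 bar, and the Cy3 bar of Pnpla3 is the tallest of the light bars.

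Some mice were high or low in most of the genes together. GLU+GAL 12, the library with Y-linked signal, was the highest GLU+GAL liver in all 10 genes and was among the 3 highest of all 24 livers in all 10. GLU 8 was the highest of all 24 livers in 5 genes, Acly, Elovl6, Scd1, Thrsp and Pnpla3, and among the 3 highest in 8. GLU 9 was the highest in Me1 and Srebf1 and was among the 3 highest in 6. At the low end, GLU+GAL 6 was among the 3 lowest livers in 5 genes and GLU 2 in 5. Other livers were above the pool in some of the genes and below it in others, such as GLU+GAL 9, above it in 6, and GLU+GAL 3, GLU+GAL 4, GLU+GAL 7 and GLU 12, above it in 3 each. In GLU+GAL 3 and GLU 12 the Me1 ratios were both -1.27, the lowest of each diet, and the Fasn ratios were -0.74 in GLU+GAL 3 and -0.68 in GLU 12. Against this, their Scd1 ratios were 0.57 in GLU+GAL 3 and 0.63 in GLU 12, and their Srebf1 ratios were 0.58 in GLU+GAL 3 and 0.48 in GLU 12. These 2 mice were on different diets and slides, and over all genes each was the closest array to the other, with r = 0.71 between their log2 ratios. This pair was looked up after the values were seen.

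**Figure D3:**
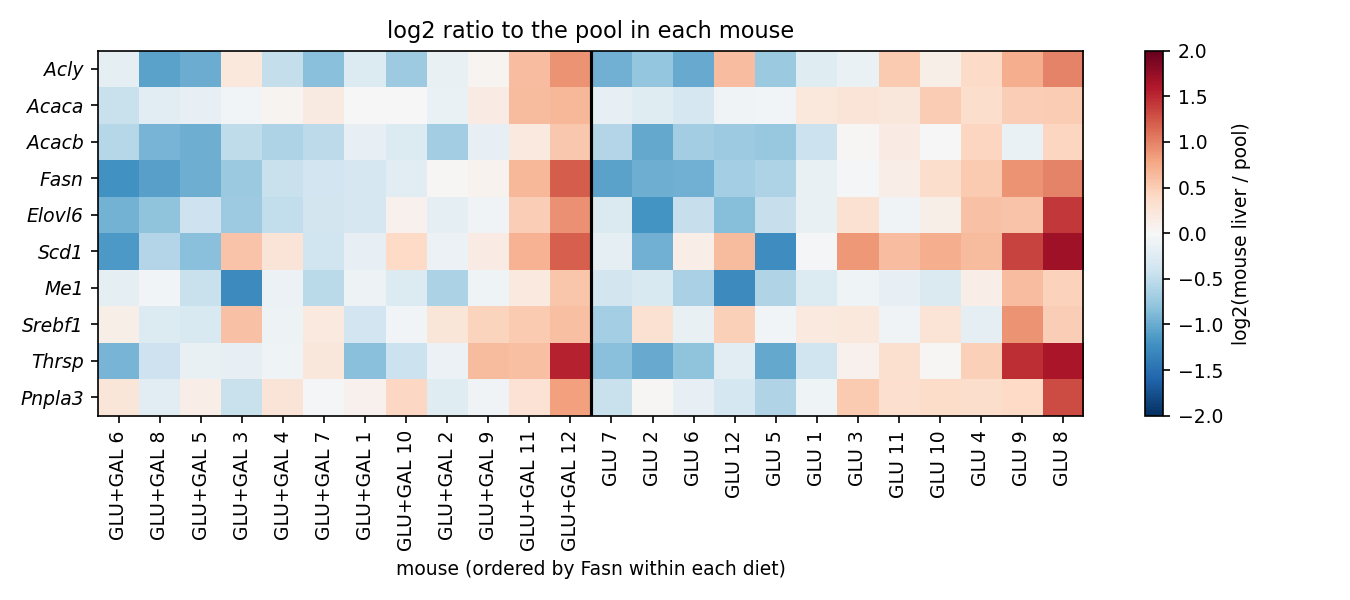
log2 ratio to the pool (colour, red above and blue below) for the 10 genes (rows) in each of 24 livers (columns), with GLU+GAL livers left of the line and GLU livers right of it, each ordered by Fasn. Some columns are of one colour, as in GLU+GAL 12 and GLU 8, while others hold both, as in GLU+GAL 3, GLU+GAL 9 and GLU 12.

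Fasn was then set against every other gene over the 24 mice, with diet as a covariate in limma and Benjamini-Hochberg adjustment over 18648 genes. Of the other 9 genes, 8 had a positive association with an adjusted p under 0.05, and 118 of all genes (0.633%) did so. None of the 9 was among the 33 genes (0.177%) with a negative association. Since the genes were chosen with earlier results of these data known, these counts describe the set and do not test it. Acaca had the highest correlation with Fasn of all 18648 genes, with Pearson r = 0.93, Spearman rho = 0.92 and an adjusted p of 6.09e-07 in limma. Elovl6 had rank 3 with r = 0.90 (rho = 0.90, limma adjusted p = 1.05e-06), Thrsp rank 6 with r = 0.87 (rho = 0.82, limma adjusted p = 5.32e-06) and Acacb rank 7 with r = 0.87 (rho = 0.84, limma adjusted p = 1.43e-05). Acly had r = 0.80 and rank 29, and Scd1 had r = 0.79 and rank 31. These 6 genes kept r of at least 0.72 when the 2 mice farthest from the Fasn median, GLU+GAL 12 and GLU 8, were left out. Each had a permutation p for r of 1e-05 (the smallest that 100000 resamples can give) except Scd1, at 2e-05, in a family of 9 relations.

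On the probes used, Pnpla3, Me1 and Srebf1 followed Fasn less closely. The other Me1 probe had r = 0.75 with Fasn, at a mean Cy5 signal of 5386 against 5495 for the used probe. The other Pnpla3 probe, which did not pass the filter, had r = 0.85. Pnpla3 had r = 0.70 (rho = 0.66, permutation p = 0.00015, limma adjusted p = 0.0126) and rank 79, and r was 0.55 without the 2 farthest mice. Me1 had r = 0.67 (rho = 0.60, permutation p = 0.00033, limma adjusted p = 0.0224) and rank 102, and r was 0.55 without them. These calls rested on single livers. For Me1 the limma adjusted p was 0.112 without GLU+GAL 12, 0.0768 without GLU 8 and 0.0709 without GLU 9, and its slope on Fasn was 0.42, 0.42 and 0.40, against 0.45 with all livers. For Pnpla3 it was 0.0721 without GLU+GAL 12 and 0.0638 without GLU 8, with slopes of 0.41 and 0.34, against 0.43 with all livers. With the scanner's processed signals it was 0.053 for Me1 and 0.080 for Pnpla3. Srebf1 itself had r = 0.57 (rho = 0.52, permutation p = 0.00443) and rank 271, and its limma adjusted p of 0.113 did not pass. Without GLU+GAL 3 the adjusted p of Srebf1 was 0.0496 and without GLU 12 it was 0.0498, in limma over all genes. The count of positive genes also rested on single livers: it was 69 without GLU+GAL 12, 69 without GLU 8 and 178 without GLU 12.

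**Figure D4:**
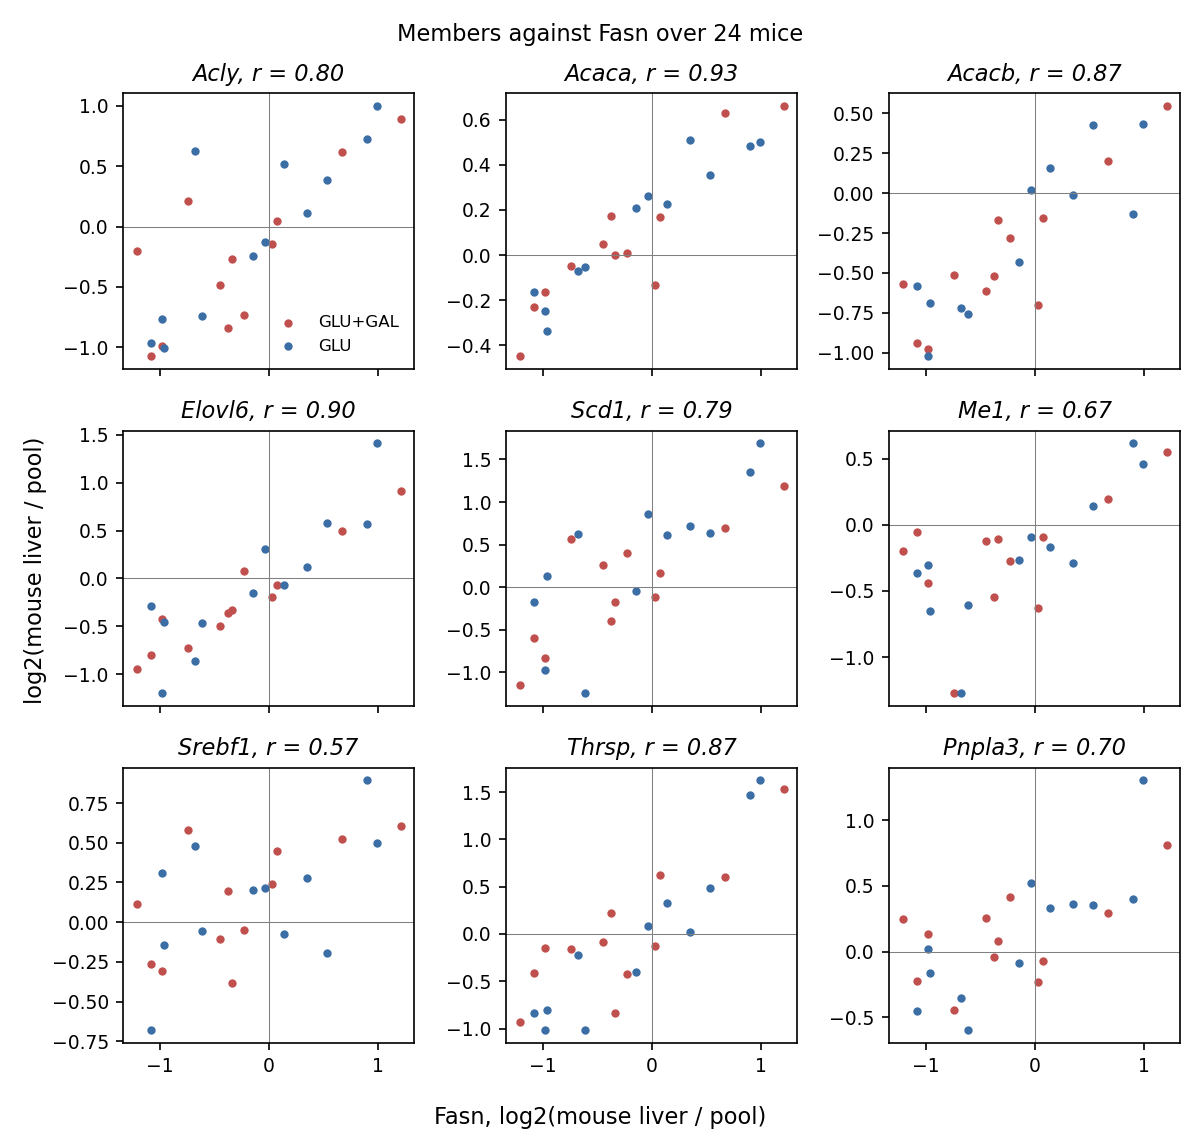
log2 ratio to the pool of 9 genes (y axes, 1 panel each) against that of Fasn (x axis) in 24 livers, with GLU+GAL and GLU livers in 2 colours and Pearson r in each panel title. Acaca and Elovl6 lie close to a line, while in the Me1 panel 2 livers near -1.27 lie far below the rest.

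Within slides the order was kept in part. On slides 1, 2 and 3, r with Fasn was 0.92, 0.93 and 0.95 for Acaca, over 8 livers each. For Elovl6 it was 0.94, 0.76 and 0.94, and for Thrsp 0.92, 0.57 and 0.88. Srebf1 had 0.80, 0.34 and 0.26 and Pnpla3 0.74, 0.31 and 0.86, the widest ranges of the 9. With slide as a block, 7 of the 9 genes were called, Pnpla3 being lost at a limma adjusted p of 0.056, among 79 genes positive and 20 negative. Within diets, r with Fasn was 0.91 for Acaca in GLU+GAL livers and 0.96 in GLU livers, and for Pnpla3 it was 0.54 in GLU+GAL livers and 0.82 in GLU livers. The difference in slope between diets was tested with an interaction term, which called 0 of 18648 genes (0%) in limma, with 372 at an unadjusted p under 0.05. The lowest unadjusted p among the 9 genes was 0.061, for Pnpla3.

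Across all 45 pairs of the 10 genes, r was positive in each and above 0.5 in 39, with a median of 0.73. It ran from 0.17, for Me1 with Srebf1, to 0.93, for Acaca with Fasn. Srebf1 also had low values with Pnpla3 (0.32), Acacb (0.33) and Elovl6 (0.34), whereas with Acly it had 0.69. The median over all pairs was 0.66 in GLU+GAL livers and 0.78 in GLU livers, 0.68 without GLU+GAL 12, and 0.75, 0.47 and 0.78 on slides 1, 2 and 3. In the Cy5 channel alone it was 0.68. In the Cy3 pool channel, where all arrays carry the same RNA, it was -0.014, with single pairs of both signs, from -0.70 to 0.75. Over all gene pairs of the table the median r was 0.

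**Figure D5:**
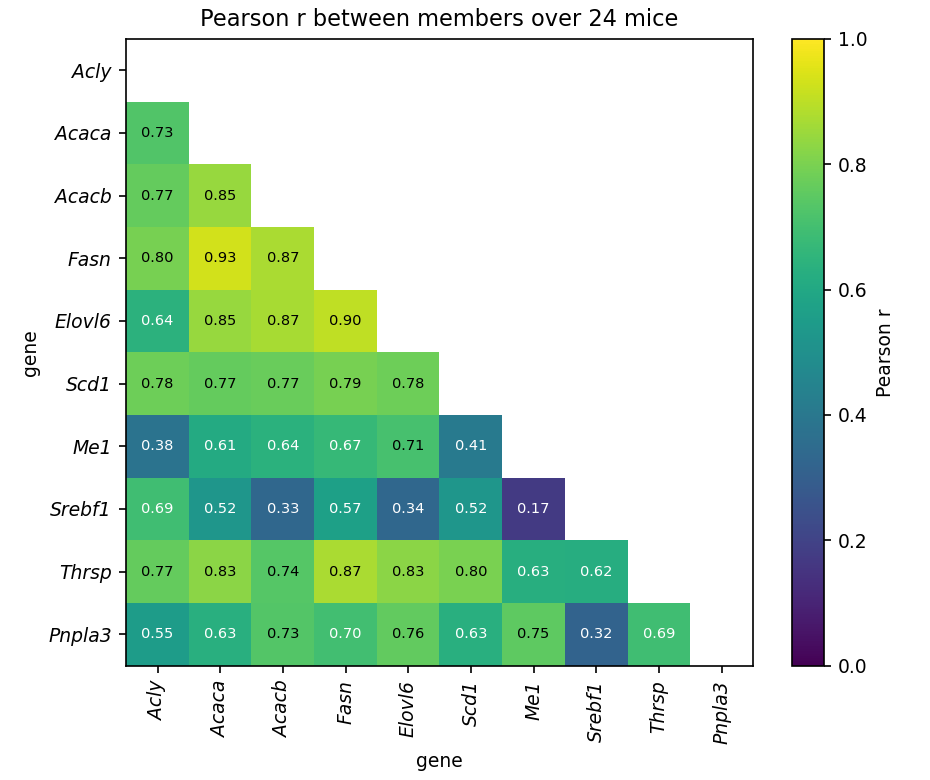
Pearson r over 24 livers (colour and printed value) for the 45 pairs of the 10 genes on both axes. The block of Acaca, Acacb, Fasn and Elovl6 lies between 0.85 and 0.93, and the Srebf1 row and column hold the lowest value, 0.17 with Me1.

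Using each of the other genes as the index in turn, the count of the remaining 9 that were called positive was highest for Thrsp, at 9, where 1.45% of all genes were called. It was 7 for Acly (2.08% of all genes), Acacb (0.257%), Elovl6 (0.316%) and Scd1 (1.32%), and 6 for Acaca (0.284%). It was 5 for Pnpla3 (0.273%), 3 for Me1 (0.263%) and 2 for Srebf1 (1.12%). The genes called with Srebf1 were Acly and Thrsp. With Me1 they were Fasn, Elovl6 and Pnpla3.

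The brightest probe decided the result for Acacb. Its used probe (chr5:114700702-114700761, mm9) correlated with Fasn at r = 0.87, whereas the other passing probes correlated at -0.03 (chr5:114667674-114667733, mm9) and -0.13 (spanning chr5:114596822-114615564). With the used probe these 2 correlated at -0.06 and -0.17. The first of them was well above background on all 24 arrays, with a mean Cy5 signal of 747, and its SD was 0.27 against 0.47 for the used probe. Values for Acacb therefore hold for 1 of its 3 probes. Among the other passing probes, r with the used probe was 0.99 for the second Thrsp probe, 0.96 for Scd1, 0.95 for Me1, 0.86 for Acly, and 0.88 and 0.75 for 2 of Acaca. With Fasn, these probes had r of 0.87 for Thrsp, 0.72 for Scd1, 0.75 for Me1, 0.57 for Acly, and 0.87 and 0.62 for Acaca. Probes that did not pass the filter had r of 0.01 to 0.53 with the used probe in Acaca, over 4 probes, and of 0.75 in Pnpla3. Fasn, Elovl6 and Srebf1 had a single probe.

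Other enzymes and carriers of the pathway moved with Fasn in part. Of 38 such genes, all tested, 16 were called positive and none negative, against 0.633% and 0.177% of all genes, and their median r was 0.54. Without GLU+GAL 12 the count was 11, and 69 of all 18648 genes were then called positive. Gpam, which starts glycerolipid synthesis, had r = 0.91, and Mid1ip1, a partner of the carboxylases and paralogue of Thrsp, had r = 0.85. Pgd and G6pdx, which make NADPH in the pentose phosphate pathway, had r = 0.83 and 0.73, and Tkt of the same pathway had 0.74. Slc25a1, the mitochondrial citrate carrier, had r = 0.75, Acss2, which makes acetyl-CoA from acetate, 0.75, and Aacs, its acetoacetate counterpart, 0.77. Pklr, the last enzyme of glycolysis in liver, had r = 0.68. Also called were Acsl5, Acsl3, Scd3, Fads2, Idh1 and Pmvk, of which Pmvk is an enzyme of cholesterol synthesis that the list includes. Mlycd, which removes malonyl-CoA, had r = -0.59 and a limma adjusted p of 0.0838.

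Of 35 regulators of lipogenesis, 1 was called positive with Fasn and none negative, against 0.633% and 0.177% of all genes. It was Insig1 (r = 0.84, limma adjusted p = 4.03e-05), which holds the sterol regulatory proteins in the endoplasmic reticulum and is itself their target. Srebf2 had r = 0.65 (limma adjusted p = 0.109), Rxra -0.49 and Mlx 0.52, none of them called, and the median r of the 35 was 0.025. Among 34 tested fasting response genes, none was called positive and 1 negative, against 0.633% and 0.177% of all genes, with a median r of -0.15. It was Cpt1a, the mitochondrial fatty acid importer that malonyl-CoA inhibits, with r = -0.64 and a limma adjusted p of 0.0473, and it was not called without GLU+GAL 12. Acot2 had r = -0.55, Vnn1 -0.49 and Acadm -0.51, none of them called. The mice were food-deprived when killed, and the hours without food are not in the sources read.

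None of the markers of hepatocytes, adipocytes, Kupffer cells, muscle, pancreas, endothelial or erythroid cells was called with Fasn. Of all genes, 0.633% were called positive and 0.177% negative, and at these shares lists this short would hold few calls. The mean over the markers tested correlated with Fasn at r = 0.29 for 8 of hepatocytes, 0.054 for 9 of adipocytes, -0.04 for 10 of Kupffer cells, -0.20 for 4 of muscle, 0.44 for 3 of pancreas, -0.35 for 6 of endothelial cells and -0.09 for 3 of erythroid cells. Between diets, all 10 Kupffer markers had lower means in GLU+GAL livers, and so did 7 of the 8 hepatocyte markers, against 49.2% of all genes. The unadjusted p in limma was under 0.05 for 5 Kupffer and 4 hepatocyte markers, against 4.31% of all genes. None of these passed in limma after adjustment. The mean of the Kupffer log2 ratios per mouse ran from -0.59 to 0.30 in GLU+GAL livers and from -0.18 to 0.77 in GLU livers. That of the hepatocyte markers ran from 0.0072 to 0.33 in GLU+GAL livers and from 0.059 to 0.46 in GLU livers. Their part in any result for the 10 genes was not tested.

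The genes most like Fasn outside the 10, by Pearson r over 24 livers, included Gpam (0.91), an unnamed transcript NAP092820-001 (0.89), Cyb5r3 (0.88), Pnpla5 (0.86), Fdft1 (0.85), Mid1ip1 (0.85) and Fdps (0.84), with 2 more unnamed ones among the first 10. Cyb5r3 passes electrons to desaturases, Pnpla5 is a paralogue of Pnpla3, and Fdft1 and Fdps act in cholesterol synthesis. NAP092820-001 was the closest of all genes to Elovl6, with r = 0.97. The most opposite genes were Smim13 (-0.84), Fbxo21 (-0.79), Rilpl2 (-0.79), Zkscan17 (-0.76), Eif1 (-0.74), Zfp943 (-0.74), Timm10 (-0.74), Hsd17b6 (-0.74), Dtnbp1 (-0.72) and Tmtc2 (-0.72). Zfp943 did not pass the limma threshold, at an adjusted p of 0.0601.

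The other genes had different neighbours. Acly was nearest to Sc5d (0.93), Dhcr7 (0.91) and Paox (0.91), of which the first 2 act late in cholesterol synthesis. Scd1 was nearest to Scd3 (0.97), its paralogue on the same chromosome, then Klk1b5 (0.88) and Klk1b8 (0.87), and whether either probe also binds the RNA of the other gene was not tested. Acaca was nearest to Cyb5r3 (0.88), Gpam (0.83) and Chrna4 (0.83), and Thrsp to NAP092820-001 (0.87), Chrna4 (0.84) and Cyb5r3 (0.83). Acacb was nearest to an unnamed transcript (0.90), Pnpla5 (0.89) and Acss2 (0.87), and Elovl6, after NAP092820-001, to Cyb5r3 (0.91) and Gpam (0.88). Me1 was nearest to an unnamed transcript (0.91), Hcn3 (0.86) and Pklr (0.84), Pnpla3 to Pltp (0.87), an unnamed transcript (0.85) and Csl (0.85), and Srebf1 to Mblac2 (0.81), Sigirr (0.80) and Krt8 (0.79). The Hcn3 probe (chr3:88950072-88950131, mm9) lies close to the Pklr probe (chr3:88948907-88949425). Whether the Hcn3 probe also binds the RNA of Pklr was not tested.

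Replacing part of the glucose with galactose did not give a detectable difference in any of the 10 genes. In limma, 0 of 18649 genes (0%) were called between GLU+GAL and GLU livers, the lowest adjusted p was 0.523, and 803 genes (4.31%) had an unadjusted p under 0.05. None of the 10 genes had one: the lowest was 0.237, for Scd1, and the adjusted p was 0.999 for each. Scd1 averaged 0.0024 in GLU+GAL livers and 0.35 in GLU livers, a difference of -0.35 with a 95% interval of -0.94 to 0.24, n = 12 per diet. As a fold this is 0.786, with an interval of 0.521 to 1.18. A difference of this size is within the spread between mice. Of the 10 genes, 9 had lower means in GLU+GAL livers, against 49.2% of all genes, and the median difference was -0.10 (all genes 0.0013). The 10 genes vary together across livers, so their directions are not independent of each other.

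For the other genes the difference was -0.21 (SE 0.25) for Acly, -0.19 (SE 0.23) for Elovl6, -0.16 (SE 0.27) for Fasn, -0.12 (SE 0.18) for Acacb and -0.08 (SE 0.12) for Acaca. It was -0.03 (SE 0.17) for Pnpla3, -0.02 (SE 0.18) for Me1, -0.01 (SE 0.14) for Srebf1 and 0.01 (SE 0.30) for Thrsp. The interval for Fasn was -0.71 to 0.40, so a GLU+GAL mean from 0.613 to 1.32 times the GLU mean lay within it. Without GLU+GAL 12 all 10 means were lower in GLU+GAL livers, with -0.29 for Fasn, -0.46 for Scd1 and -0.13 for Thrsp, and the limma adjusted p was still 0.998. On slide 1 Fasn was higher in GLU+GAL livers by 0.35, and on slides 2 and 3 the differences were -0.26 and -0.55. Of the 10 genes, Scd1 and Acly were lower in GLU+GAL livers on all 3 slides. For Scd1 these differences were -0.25, -0.22 and -0.57. The Fasn medians were -0.32, -0.47 and 0.16 on slides 1, 2 and 3, with an unadjusted p of 0.072 for slide in limma. In the same test the unadjusted p was 0.010 for Srebf1 and Scd1, 0.016 for Thrsp, 0.033 for Acaca and 0.041 for Acacb. The rest of the 10 genes had an unadjusted p from 0.059 to 0.760, and no gene was called. The spread between mice described above therefore includes any difference between slides.

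By the mean absolute deviation from the diet's median, the spread of all 10 genes had a lower value in GLU+GAL livers, against 37.7% of all genes, and no gene was called. As above, the 10 genes vary together, so these directions are not independent. For Thrsp the SD was 0.68 in GLU+GAL livers and 0.89 in GLU livers, for Scd1 0.68 and 0.86, for Elovl6 0.54 and 0.70, and for Pnpla3 0.34 and 0.52, in the same order of diets. For Fasn it was 0.71 in GLU+GAL livers and 0.73 in GLU livers, and Acaca alone had a higher SD in GLU+GAL livers, at 0.33 against 0.30. The limma test of deviations called 0 of 18649 genes (0%), with 498 at an unadjusted p under 0.05, and the lowest unadjusted p among the 10 was 0.137, for Pnpla3. This test made few calls on simulated data at this number of mice, so the lack of calls does not show equal spread.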

How the data were processed

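The arrays were Agilent 2-colour arrays, 1 per mouse, with Cy5 for the mouse and Cy3 for the pool and no dye swap. The deposited scanner files hold spot intensity values of the 2 dyes, extracted, per the submitters' processing notes, by Agilent Feature Extraction 10.7.3.1. Their processed intensity is background-subtracted and dye-normalized, per the file headers, and was an alternative only. A table deposited by the authors holds log2 values for 29287 spots. Its scaling is not stated, all its columns have a median of 8.6, and each of the 24 matched its own array's Cy5 channel best. The number of arrays limits the precision.

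Each array had 62976 features, 59305 of them not controls, for 56605 probes. Mean signals were corrected by normexp with an offset of 50 on the median local background and normalised by loess within arrays, giving control spots no weight, with limma 3.58.1 (R 4.3.3, package data.table at 1.17.8). Outlier spots were left out, spots of a probe were averaged, and a gene was its brightest probe, kept if at least 6 arrays of 1 diet had it well above background in Cy5 and 18 arrays gave a value. The diet contrast was GLU+GAL minus GLU, 2-sided, with Benjamini-Hochberg adjustment over all genes at 0.05. Of the genes tested, 13334 were named by RefSeq accession, 1227 by symbol, 81 by synonym, and 4007 kept the file's name. The Fasn association had diet as a covariate, and the difference in spread was tested on absolute deviations from the diet's median, a test that made few calls on simulated data at this number of mice. The fits were tested on simulated data. Probe positions are on mm9, per the file headers. Nothing says that the mice came from separate litters or cages beyond single housing, so p-values measure the spread between these mice. The rule for named genes took all 10 genes, the called members of each list or at least the 4 with the smallest p, the 10 genes most and least like Fasn and the 3 most like each other gene, of which a few are not reported here. Members and lists were chosen with earlier results of these data known. The pool channel, the slide test and the closest pair of arrays were looked at after seeing the data. Figures were drawn with matplotlib 3.10.9.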

Additional observations from a re-analysis of the deposited data

How the results depend on the processing

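Without any one array or under another setting, the diet difference of no member passed the threshold in limma. Its sign turned in some settings. The turned differences were 0.15 for Acaca, 0.24 for Acacb, 0.35 for Fasn, 0.35 for Elovl6 and 0.26 for Me1 with slide 1 alone, 0.0026 for Acacb with the mean of all probes, 0.030 for Me1, 0.021 for Srebf1 and 0.016 for Pnpla3 with the processed signals. They were 0.011 for Me1 and 0.039 for Srebf1 with median centring in place of loess, 0.0060 for Me1 with Cy5 alone, 0.020 for Me1 and 0.080 for Srebf1 with the deposited table. They were 0.094 for Me1, -0.10 for Thrsp and 0.42 for Pnpla3 with slide 2 alone, 0.12 for Srebf1 and -0.17 for Thrsp with slide 3 alone, 0.059 for Srebf1 with array weights, -0.13 for Thrsp with both GLU+GAL 4 and GLU+GAL 12 left out. Other probes of the same genes gave 0.038 for Acly, 0.037 for Acaca, 0.029 for Acacb and 0.095 for Acacb. With 1 array left out, the difference was -0.11 to 0.076 for Me1, -0.085 to 0.058 for Srebf1, -0.13 to 0.16 for Thrsp and -0.10 to 0.071 for Pnpla3, and the other 6 genes kept their sign. The genes called by diet numbered 0 to 1, the 1 call arising without GLU 3.

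The association with Fasn depended on more choices. Main counts were 118 positive, 33 negative and 8 of the 9 other genes. With 1 array left out they were 69 to 178, 11 to 100 and 6 to 9. Negative counts were 14 without GLU+GAL 12, 15 without GLU+GAL 8, 76 without GLU+GAL 3, 11 without GLU 8, 18 without GLU 6, 19 without GLU 7 and 100 without GLU 12. Positive counts were 71 with the processed signals and 208 with median centring. Negative counts were 2 with median centring, 53 with Cy5 alone, 14 with no filter, 20 with slide as a block and 17 without GLU+GAL 4 and GLU+GAL 12 together. On single slides, with 8 arrays, 1, 0 and 0 genes were positive, 0 negative and 0 members called. Within GLU+GAL alone 4 were positive, 0 negative and 2 members called, and within GLU alone 45 were positive and 4 negative. With another index gene the positive and negative counts were 387 and 410 for Acly, 53 and 3 for Acaca, 48 and 0 for Acacb, 59 and 8 for Elovl6, 247 and 125 for Scd1, 49 and 6 for Me1, 209 and 251 for Srebf1, 271 and 50 for Thrsp and 51 and 17 for Pnpla3. The members called were 3 for Me1, 2 for Srebf1 and 5 for Pnpla3. The replicate block left 39 positive, 11 negative and 4 members called. The labels do not say whether the replicate numbers pair the mice. Same-numbered livers correlated at -0.38 to 0.52 in their deviations, 8 of the 12 above 0.1, and 4 matched their own number best. Whether the mice were paired was not tested. Interaction calls were 2 on slide 1. The cause of these changes was not tested.

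The median SD of the 10 genes was 0.64 with the processed signals, 0.35 on slide 2 and 0.078 in the pool channel, and the median r of pairs was 0.47 on slide 2 and -0.014 in the pool channel, which carries one RNA. Signal over background limits Pnpla3, the dimmest of the 10.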
